A study of Homo sapiens with 60 samples.

Results

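HT29 cells, a long-used epithelial line from a human colorectal adenocarcinoma, were exposed for 24 h to a hot-water extract of Guibi-tang at the high dose of 500 µg/mL and set against cells given vehicle, and every measured gene was compared. Guibi-tang is a multi-herb formula of traditional East Asian medicine. Libraries were grouped by their sample labels, but the comparison was chosen with earlier results of these data known. So were the gene lists used below, so counts of list members that passed describe these data and are not independent evidence. The comparison rests on 17049 tested genes out of 60675 listed, and on 3 Guibi-tang libraries and 3 vehicle libraries out of the 60 in the series. Around it stand Guibi-tang at 100 µg/mL (medium) and at 20 µg/mL (low), with 3 libraries each, and 5 other extracts at 500 µg/mL with 3 libraries each: the herbs Menthae Herba and Saposhnikoviae Radix and the formulas Saengmaek-san, Soyo-san and Okbyeongpung-san. Vehicle was DMSO, given as 0.1% in the sample characteristics and as 2% in the series' design text. The labels used here do not say if extract-treated cells were given DMSO as well. The study profiled extracts in this line to describe each by the transcripts it changes. HT29 is 1 tumour line. Nothing in the labels states that the replicates are separate cultures. The p-values therefore reflect only how far libraries of a group differ, possibly for technical reasons.

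Many of the genes described here are known from an inflammatory response of gut epithelium. When receptors for microbial products or for cytokines such as TNF or IL-1 signal, inhibitors of NF-kB are degraded, NF-kB dimers enter the nucleus, and an epithelial cell transcribes chemokines that draw neutrophils, antimicrobial proteins, adhesion molecules and the inhibitors that end the signal. Another known programme runs through NRF2, a transcription factor freed from its repressor KEAP1 by electrophiles and oxidants. NRF2 drives enzymes of glutathione and thioredoxin metabolism, aldo-keto reductases and the autophagy adaptor SQSTM1.

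Total counts, in units of 1e6, were 27.8, 41.9 and 22.5 in the Guibi-tang high-dose libraries and 29.8, 38.5 and 33.1 in the vehicle libraries, within the 19.5 to 41.9 of the series. Markers of colon epithelium were present, since all 15 of 15 entered the tests, with a summed level of 11970 to 13940 CPM in the high-dose libraries and 11850 to 12510 CPM in the vehicle libraries (CPM, each gene's counts per 1e6 counts on scaled library sizes). Of 15 leukocyte markers 5 were tested, and CD3D, FCGR3A and MS4A1 were at 0 counts in all 6 libraries. The list summed to 1443 to 1588 CPM in the high-dose and 1418 to 1463 CPM in the vehicle libraries, nearly all of it LYZ, a gene that intestinal epithelium also uses. Fibroblast and endothelial markers summed to 4.08 to 4.38 CPM in the high-dose and 4.98 to 5.57 CPM in the vehicle libraries, with KDR at 0, and enteroendocrine and tuft markers to 2.46 to 3.11 CPM and 3.98 to 4.34 CPM, with NEUROD1 and PYY at 0. Mitochondrially encoded genes took 12.3%, 10.4% and 11.98% of the counts in the high-dose libraries and 12.8%, 12.8% and 13.5% in the vehicle libraries. With those genes left out of the fit 388 genes passed the test, against 385 with them. The part of the fibroblast, endothelial, enteroendocrine and tuft signal in the results was not tested. The leading principal component of the log2 CPM values, with 12.8% of the variance, parts the series by the order in which its libraries are numbered: the earliest 31 lie on one side and the other 29 on the other (here earlier- and later-numbered). Guibi-tang replicate 3 at the high dose is later-numbered, and the other 2 high-dose libraries and all 3 vehicle libraries are earlier-numbered. Values from the earlier-numbered libraries alone are therefore given beside the leading genes.

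After Guibi-tang at 500 µg/mL, neutrophil-attracting chemokines and a few other genes of epithelial defence, among them PI3, PIGR and C3, were higher than in vehicle by large folds. NRF2 target genes were higher by smaller folds, and nearly all genes that were lower differed by less than 1 on the log2 scale. Of the 17049 genes, 385 passed an adjusted p of 0.05 (2.26% of those tested) by edgeR's quasi-likelihood test with Benjamini-Hochberg adjustment over all genes. In the high-dose libraries 219 of them rose (1.28%) and 166 fell (0.974%), and the values of the 2 groups did not overlap for any of the 385. Over all genes tested the groups were apart for 21.7%. A change of at least 1 on the log2 scale was seen for 28 genes that rose and 2 that fell, together 0.176% of those tested. The median size of the 385 changes was 0.27 on the log2 scale. The large changes are thus nearly all upward. Leaving out any of the 6 libraries lowered the count, to 158 without vehicle replicate 1, 188 without vehicle replicate 3, 199 without Guibi-tang replicate 1, 211 without Guibi-tang replicate 3, 232 without vehicle replicate 2 and 255 without Guibi-tang replicate 2.

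**Figure D1:**
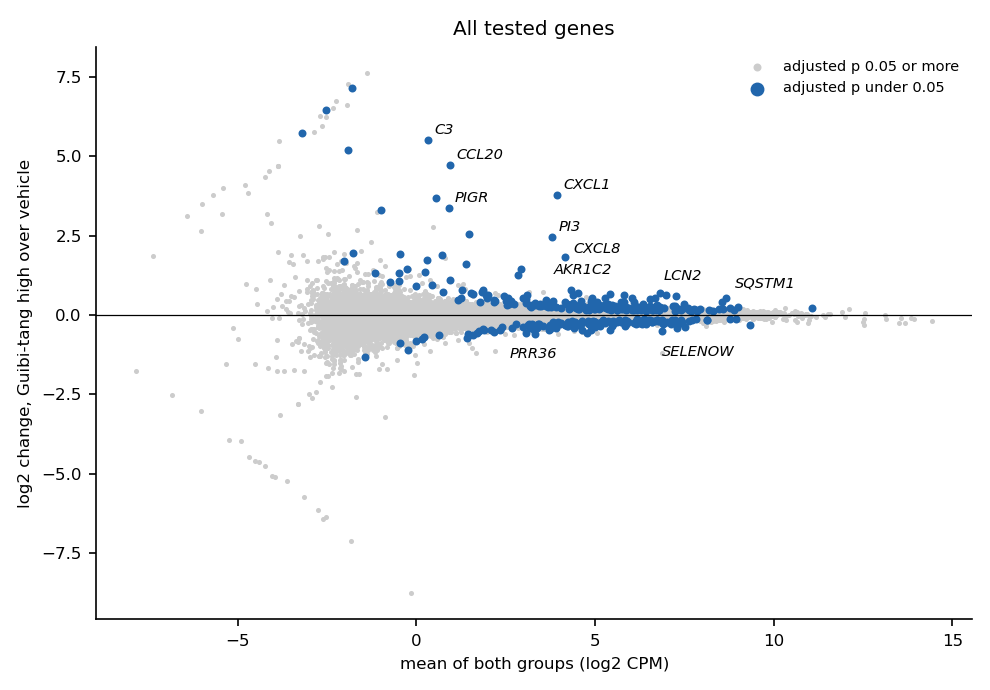
Each point is 1 of the 17049 genes tested, with the mean level of both groups (log2 CPM) across and the log2 change, Guibi-tang high dose over vehicle, upward. Blue points passed an adjusted p of 0.05 and grey points did not. Blue points at a change of at least 1 number 28 above the line and 2 below it, while the widest grey points lie at the lowest levels on the left.

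Chemokines, small secreted proteins that guide leukocytes, gave the clearest change. Of 13 chemokine genes tested, 7 rose and none fell in the high-dose libraries, with a median log2 change of 1.83 over the 13, against 0.0062 over all genes tested. CXCL1 (chr4:73869393-73871242, + strand, GRCh38), which draws neutrophils through the receptor CXCR2, had 27.1, 27.3 and 31.5 CPM in the Guibi-tang libraries and 2.22, 2.20 and 1.80 CPM in the vehicle libraries. Every high-dose library held more CXCL1 than every vehicle library, a log2 difference of 3.78 ± 0.14 (SE; adjusted p = 2.58e-26), and it was 3.71 in the earlier-numbered libraries alone. CXCL8 (interleukin 8), the other main neutrophil attractant of human epithelium, had 25.6, 30.8 and 27.3 CPM in the Guibi-tang libraries and 8.00, 7.96 and 7.65 CPM in the vehicle libraries (log2 change 1.83 ± 0.09, adjusted p = 2.26e-21). CXCL8 thus started from a level that the vehicle cells already held, and the vehicle libraries hardly differed among themselves.

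CCL20, which draws dendritic cells and lymphocytes carrying CCR6, had 3.22, 4.68 and 3.29 CPM in the Guibi-tang libraries and 0.202, 0.105 and 0.122 CPM in the vehicle libraries, a log2 change of 4.72 ± 0.31. CXCL6, a further CXCR2 ligand that also signals through CXCR1, had 2.14, 2.94 and 3.11 CPM in the Guibi-tang libraries and 0.202, 0.288 and 0.122 CPM in the vehicle libraries (log2 change 3.69 ± 0.32). Both were near the limit of detection in vehicle cells and clearly counted in treated cells. CXCL3 rose by 2.56 ± 0.18 and CXCL2 by 1.89 ± 0.21 on the log2 scale, both of them neutrophil attractants close in sequence to CXCL1. CXCL5 had 0 counts in all 3 vehicle libraries and 12 to 26 counts in the Guibi-tang libraries, at least 19.4-fold higher when the vehicle group is set at a floor of 3 counts over its 3 libraries. CXCL1, CXCL2 and CXCL3, and likewise CXCL5 and CXCL6, are near-identical relatives between which reads can be divided in several ways, so the split within each group is uncertain. The interferon-induced CXCL10 and CXCL11 had log2 differences of 1.40 (adjusted p = 0.116) and 0.95 (adjusted p = 0.23), and CX3CL1 (fractalkine) of 0.93 (adjusted p = 0.0642). None of the 3 passed the test.

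**Figure D2:**
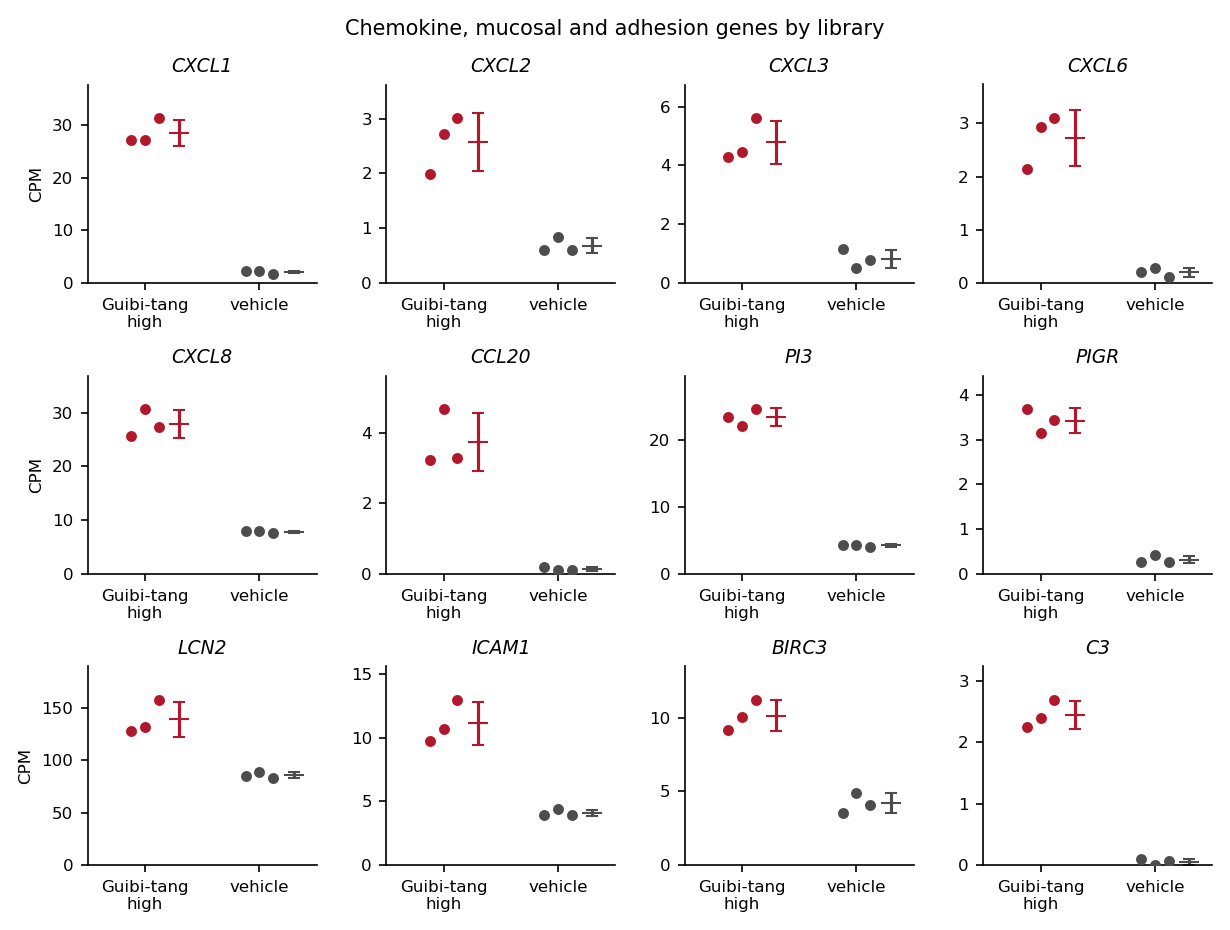
Levels in CPM (linear axes from 0) of 12 chemokine, mucosal, complement and adhesion genes, 1 panel a gene, in the 3 Guibi-tang high-dose libraries (red, left) and the 3 vehicle libraries (grey, right). Points are libraries and the marks beside them give the group mean with its SD. CXCL1 lies at 27.1 to 31.5 CPM in the Guibi-tang libraries and at 1.80 to 2.22 CPM in the vehicle libraries, and no panel shows overlap between the groups.

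The promoters of these chemokine genes carry the same letters at nearly the same distance from their starts, and are shown for that reason. In the 250 bases before the RefSeq gene start (GRCh38.p14), the 9 letters GGAATTTCC, a kappaB-type sequence, were searched on both strands. They were chosen after the promoter sequences had been looked at. Of the 29 risen members of the chemokine, NF-kB, inflammatory and antimicrobial lists, 23 had a promoter entry, and 8 of those held the letters. In the lines below, written 5′ to 3′ on the strand of the gene, the capitals mark the match, with 25 bases on each side. NFKBIA and ICAM1 hold its reverse complement.
CXCL8 at chr4:73740453-73740511 (+): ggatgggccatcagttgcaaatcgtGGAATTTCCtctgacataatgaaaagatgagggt
CXCL6 at chr4:73836564-73836622 (+): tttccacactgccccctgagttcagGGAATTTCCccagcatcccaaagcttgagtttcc
CXCL1 at chr4:73869290-73869348 (+): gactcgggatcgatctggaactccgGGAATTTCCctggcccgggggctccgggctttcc
CXCL5 at chr4:73998734-73998792 (-): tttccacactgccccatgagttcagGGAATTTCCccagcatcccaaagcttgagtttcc
CXCL3 at chr4:74038734-74038792 (-): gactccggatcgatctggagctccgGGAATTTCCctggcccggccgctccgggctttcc
CXCL2 at chr4:74099239-74099297 (-): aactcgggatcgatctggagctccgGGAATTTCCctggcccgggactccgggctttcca
NFKBIA at chr14:35404797-35404855 (-): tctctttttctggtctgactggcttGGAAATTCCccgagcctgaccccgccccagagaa
ICAM1 at chr19:10270909-10270967 (+): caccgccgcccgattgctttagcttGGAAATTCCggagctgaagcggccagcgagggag

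The 6 chemokine genes lie within a cluster on chromosome 4, and their matches begin between 77 and 91 bases before the gene start. CXCL1, CXCL2 and CXCL3 share most of the letters around the match, as do CXCL5 and CXCL6, so these promoters are relatives and not separate instances. CCL20 had a promoter entry without the 9 letters, though it held a match to the degenerate kappaB consensus, a different and partly overlapping pattern that the windows of CXCL8 and ICAM1 do not match, beginning 79 bases before its start. Among 27305 genes with a promoter entry 0.502% held GGAATTTCC, and among the 11337 of them that were tested 0.52% did. The letters were found in 10 of 176 risen genes with an entry (5.68%), in 2 of 130 fallen genes (1.54%), and in 2 of 3 chemokine genes that were tested and did not pass. That consensus, searched on both strands, was present in 31 of the 176 risen genes (17.6%) and 14 of the 130 fallen genes (10.8%). It was present in 7.92% of the tested genes and 6.28% of all genes with an entry. A match describes the letters only and no binding was measured.

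Antimicrobial and mucosal defence genes rose with the chemokines. Of 15 such genes tested, 6 rose and 1 fell, with a median log2 change of 0.27. PI3 (chr20:45174876-45176544, + strand), which encodes the protease inhibitor elafin, had 23.5, 22.2 and 24.8 CPM in the Guibi-tang libraries and 4.403, 4.399 and 4.01 CPM in the vehicle libraries. Its log2 change of 2.45 ± 0.09 had the smallest adjusted p of the leading genes (7.58e-27) and was 2.41 in the earlier-numbered libraries alone. PIGR, the receptor that carries secretory antibodies across the epithelium, had 3.69, 3.15 and 3.43 CPM in the Guibi-tang libraries and 0.269, 0.419 and 0.275 CPM in the vehicle libraries (log2 change 3.37 ± 0.24). LCN2 (lipocalin 2), which binds bacterial siderophores, had 127.3, 131.5 and 157.7 CPM in the Guibi-tang libraries and 84.9, 88.6 and 83.1 CPM in the vehicle libraries. Its change of 0.70 ± 0.09 on the log2 scale was smaller than that of PI3. The later-numbered Guibi-tang library was the highest, and the earlier-numbered libraries alone gave 0.60.

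The acute-phase genes SAA1 and SAA2 had 0 counts in all vehicle libraries and 6 to 20 and 2 to 11 counts in the Guibi-tang libraries, at least 11.5-fold and 7.3-fold higher at the same floor, and are near-identical to each other. DMBT1, a secreted scavenger protein of mucosa, rose by 0.92 ± 0.25 (adjusted p = 0.0302). REG4, a lectin of secretory cells, fell by 0.27 on the log2 scale (adjusted p = 0.0142), and not without vehicle replicate 1 or Guibi-tang replicate 2 (adjusted p = 0.106 and 0.0661). DUOX2, the epithelial hydrogen peroxide producer, had 0.373 ± 0.127 CPM in the Guibi-tang libraries and 0.120 ± 0.082 CPM in the vehicle libraries (SD, n = 3 each), and did not pass the test (adjusted p = 0.0505).

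Complement, cytokine and adhesion genes made up the inflammatory effector list, in which 10 of 24 tested genes rose and none fell (median log2 change 0.29). C3, the central complement protein, had 2.24, 2.40 and 2.699 CPM in the Guibi-tang libraries and 0.101, 0 and 0.0612 CPM in the vehicle libraries, a log2 change of 5.50 ± 0.38 over a very low base. CFB, complement factor B, had 4.31, 3.73 and 3.80 CPM in the Guibi-tang libraries and 1.68, 1.10 and 1.16 CPM in the vehicle libraries (log2 change 1.60 ± 0.15). Both act in the alternative complement pathway, and both were higher in every high-dose library than in any vehicle library. ICAM1, an adhesion molecule for leukocytes, had 9.70, 10.7 and 13.0 CPM in the Guibi-tang libraries and 3.97, 4.37 and 3.91 CPM in the vehicle libraries (log2 change 1.43 ± 0.11, adjusted p = 1.29e-14). CSF1, the macrophage growth factor, rose by 1.73 ± 0.21 and the cytokine IL32 by 1.34 ± 0.21 on the log2 scale. MMP7 (matrilysin), a protease of epithelial cells, had 55.7, 51.2 and 52.1 CPM in the Guibi-tang libraries and 33.6, 33.3 and 33.2 CPM in the vehicle libraries, a change of 0.67 ± 0.07. SOD2, the mitochondrial superoxide dismutase, rose by 0.36, TNFAIP2 by 0.30, PTGS2 (cyclooxygenase 2) by 0.29 and TNFSF15, a cytokine of the TNF family, by 0.28 on the log2 scale. IL1A, IL1B, IL6, TNF, CSF2 and 8 other members of that list had too few counts to be tested. IL17C, an epithelial cytokine named here after its values were seen, had 0.905, 0.978 and 0.869 CPM in the Guibi-tang libraries and 0.134, 0.0524 and 0.0917 CPM in the vehicle libraries (log2 change 3.30 ± 0.41, adjusted p = 1.00e-07).

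Among NF-kB subunits and feedback genes 6 of 26 rose and 1 fell, with a median log2 change of 0.115. BIRC3, an inhibitor of cell death acting in TNF receptor signalling, had 9.16, 10.1 and 11.3 CPM in the Guibi-tang libraries and 3.56, 4.92 and 4.10 CPM in the vehicle libraries (log2 change 1.26 ± 0.12). NFKBIA, which encodes the inhibitor that holds NF-kB in the cytoplasm, had 29.1, 26.1 and 29.5 CPM in the Guibi-tang libraries and 20.9, 20.5 and 20.1 CPM in the vehicle libraries (0.45 ± 0.06). The deubiquitinase TNFAIP3 (A20) rose by 0.79 ± 0.15 and the RNase ZC3H12A (regnase 1), which degrades cytokine messages, by 0.68 ± 0.06. The risen members of the list thus include 3 genes whose products limit the response. RELB and NFKB2, the subunits of the alternative pathway, rose by 0.31 and 0.30, RELB not without vehicle replicate 2 or 3 or Guibi-tang replicate 1 or 2 (adjusted p up to 0.0915). NFKBIZ, a nuclear co-regulator, fell by 0.27, though not without Guibi-tang replicate 3 (adjusted p = 0.058). The subunit genes RELA, NFKB1 and REL had log2 differences of -0.11, 0.10 and 0.23 and did not pass (adjusted p = 0.332, 0.293 and 0.448). No gene out of 29 tested innate receptors and adaptors passed, with a median log2 difference of 0.0341. TLR4, the receptor for lipopolysaccharide, had 18.8 ± 0.53 CPM in the Guibi-tang libraries and 15.9 ± 0.32 CPM in the vehicle libraries (SD, n = 3 each; adjusted p = 0.0582).

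Of 27 interferon-response genes 9 rose and none fell (median log2 change 0.37). IFIT3, an interferon-induced antiviral protein, had 8.61, 9.04 and 10.6 CPM in the Guibi-tang libraries and 6.15, 6.70 and 6.42 CPM in the vehicle libraries (0.54 ± 0.09, adjusted p = 6.06e-05). IFIH1 (MDA5), a sensor of double-stranded RNA, rose by 0.49 ± 0.09, IFI44 by 0.67 ± 0.14 and IFIT2 by 0.54 ± 0.11. These changes are small beside those of the chemokines. Without vehicle replicate 2 or 3 the count of risen members was 5 and without Guibi-tang replicate 2 it was 4. IRF9, a subunit of the interferon-activated factor with 0.63 ± 0.14 over all libraries, lost its call without vehicle replicate 3 or Guibi-tang replicate 1 or 2 (adjusted p = 0.0524 to 0.112).

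**Figure D3:**
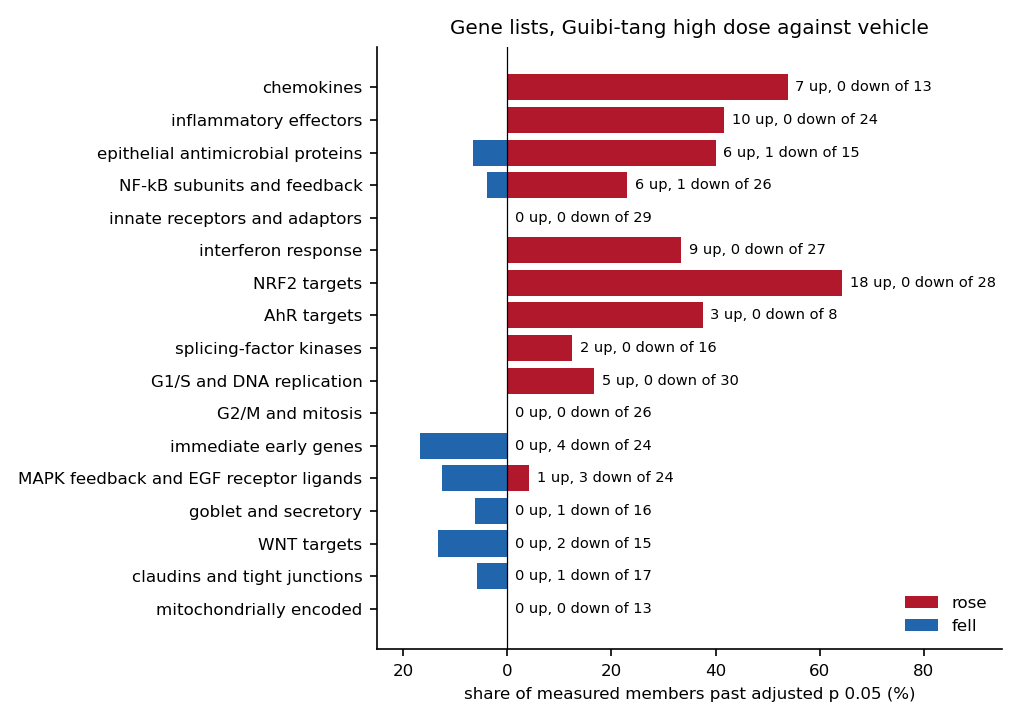
For each of 17 gene lists, bars give the share of tested members, in percent, that passed an adjusted p of 0.05 in the Guibi-tang high dose over vehicle, to the right for members that rose and to the left for those that fell, with the counts written beside them. The longest bars are those of the NRF2 targets (18 of 28) and the chemokines (7 of 13), and the immediate early genes point to the left (4 of 24).

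NRF2 target genes gave the highest number of risen members of any list, by smaller folds. Of 28 tested, 18 rose and none fell, 27 had a positive difference, and the median was 0.26 on the log2 scale. The count of risen members was 12 without vehicle replicate 1 and 13 without vehicle replicate 2. SQSTM1 (p62; chr5:179806398-179838078, + strand), an autophagy adaptor that also sequesters KEAP1, had 455.2, 500.4 and 487.9 CPM in the Guibi-tang libraries and 339.7, 326.8 and 330.7 CPM in the vehicle libraries. The difference of 0.53 ± 0.04 had an adjusted p of 1.99e-15 and was 0.52 in the earlier-numbered libraries alone. AKR1B10, an aldo-keto reductase of the gut, had 163.5, 145.0 and 157.9 CPM in the Guibi-tang libraries and 100.0, 98.2 and 102.7 CPM in the vehicle libraries (0.63 ± 0.10). AKR1C2, a reductase of steroids and carbonyls, had 26.6, 24.2 and 24.6 CPM in the Guibi-tang libraries and 15.9, 14.2 and 14.1 CPM in the vehicle libraries (0.77 ± 0.10, the largest change among the 18). AKR1C1 and AKR1C3 rose by 0.62 and 0.63, and the AKR1C genes are close relatives among which reads are divided.

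Both subunits of the enzyme that limits glutathione synthesis rose. GCLM had 77.1, 81.2 and 74.6 CPM in the Guibi-tang libraries and 46.3, 54.9 and 60.7 CPM in the vehicle libraries (0.53 ± 0.08). GCLC had 108.6, 104.1 and 115.9 CPM in the Guibi-tang libraries and 73.9, 78.5 and 78.7 CPM in the vehicle libraries (0.51 ± 0.06). SLC7A11, the cystine importer of the same pathway, rose by 0.59 ± 0.13 (adjusted p = 0.0101) and lost its call without vehicle replicate 1 or Guibi-tang replicate 1 (adjusted p = 0.0643 to 0.134). HMOX1 (heme oxygenase 1) had 14.0, 14.9 and 14.1 CPM in the Guibi-tang libraries and 10.99, 10.4 and 9.79 CPM in the vehicle libraries (0.47 ± 0.10). TXNRD1 (thioredoxin reductase 1) rose by 0.41 ± 0.05 and NQO1 (a quinone reductase) by 0.26 ± 0.05. PGD, TKT and TALDO1, enzymes of the pentose phosphate route, had differences of 0.12, 0.18 and 0.17 that did not pass (adjusted p = 0.137, 0.0915 and 0.276). A partial NRF2 motif, TGACNNNGC, was searched on both strands of the promoter window. It was present in 3 of 12 risen NRF2 targets with an entry and 2 of 7 that did not pass. Among the tested genes with an entry 15.8% held it, and among all genes with an entry 13.2%.

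Other enzymes for foreign compounds changed less. Of 8 targets of the aryl hydrocarbon receptor (AhR), which senses planar ring compounds, 3 rose: NQO1, ALDH3A1 by 0.46 ± 0.10 and UGT1A6 by 0.41 ± 0.07, the last of them sharing exons with the rest of the UGT1A family. The most specific AhR targets did not pass: CYP1A1 had 0.724, 0.909 and 0.869 CPM in the Guibi-tang libraries and 0.336, 0.576 and 0.551 CPM in the vehicle libraries (adjusted p = 0.214). CYP1B1 had 43.9, 45.6 and 48.9 CPM in the Guibi-tang libraries and 45.2, 44.6 and 45.1 CPM in the vehicle libraries, overlapping between the groups. Of 16 genes of xenobiotic metabolism 3 rose, namely ABCG2, an efflux pump, and UGT1A1, each by 0.25, and UGT1A10 by 0.18. UGT1A1 lost its call without vehicle replicate 1 or 3 or Guibi-tang replicate 1 (adjusted p up to 0.132), and UGT1A10 without vehicle replicate 3 or Guibi-tang replicate 1 or 2 (up to 0.13). Among kinases of splicing factors 2 of 16 rose. CLK1 had 44.4, 45.8 and 48.8 CPM in the Guibi-tang libraries and 30.9, 33.5 and 31.8 CPM in the vehicle libraries (0.53 ± 0.06, adjusted p = 2.07e-08). CLK4 rose by 0.36 ± 0.08 and lost its call without Guibi-tang replicate 3 (adjusted p = 0.054).

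Most genes that fell did so by small steps, and few of them share a list. The 2 that fell by at least 1 on the log2 scale are noncoding and low in level, and are named with other genes of this size after their values were seen. MIR205HG, the host transcript of a microRNA, had 0.543, 0.536 and 0.549 CPM in the Guibi-tang libraries and 1.14, 1.07 and 1.254 CPM in the vehicle libraries (-1.09 ± 0.24, adjusted p = 0.00542), and held its call whichever library was left out. The antisense transcript AL022322.2 fell by 1.33 on the log2 scale and lost its call without any 1 library but Guibi-tang replicate 3 (adjusted p up to 0.28). Among further genes that rose by at least 1, DOC2B, a calcium sensor of vesicle release, had 0.543, 0.489 and 0.366 CPM in the Guibi-tang libraries and 0.134, 0.0524 and 0.184 CPM in the vehicle libraries (1.94 ± 0.38). The long noncoding MIR3142HG had 0.398, 0.443 and 0.732 CPM in the Guibi-tang libraries and 0, 0.0262 and 0 CPM in the vehicle libraries. DOC2B, MIR3142HG and NPIPA3 (1.10, one of a family of near-identical copies) held their calls without any library. EPSTI1, SPRR1B, IL4I1, HEPHL1, HDAC9 and AC006262.1 rose by 1.05 to 1.71 at means of 0.385 to 1.24 CPM in the Guibi-tang libraries, and each lost its call without at least 2 of the 6 libraries (adjusted p up to 0.211). SELENOW, which encodes a small selenoprotein, had 103.2, 98.1 and 89.6 CPM in the Guibi-tang libraries and 138.7, 133.0 and 137.6 CPM in the vehicle libraries (log2 change -0.49 ± 0.08, and -0.44 in the earlier-numbered libraries alone). MAST3, a kinase linked to microtubules, had 24.1, 24.7 and 25.4 CPM in the Guibi-tang libraries and 35.8, 31.6 and 36.4 CPM in the vehicle libraries (-0.48 ± 0.07). The selenoprotein list as a whole had 1 risen member, TXNRD1, and 1 fallen one out of 16. GATA2, a transcription factor of blood and other lineages, had 129.0, 138.7 and 136.8 CPM in the Guibi-tang libraries and 182.7, 170.7 and 182.2 CPM in the vehicle libraries (-0.40 ± 0.06). EDN1 (endothelin 1, a vasoactive peptide), WNK4 (a kinase of ion transport) and SOGA1 fell by 0.42, 0.48 and 0.41 on the log2 scale. PRR36, SPEG, PIGZ, the endodermal factor FOXA2, the homeobox gene HOXC6, the reductase DHRS2 and the membrane-bound factor CREB3L1 fell by 0.37 to 0.57, and each of these 7 lost its call without at least 1 of the 6 libraries (adjusted p up to 0.18).

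Immediate early genes, which answer growth factor signals within minutes, had no risen and 4 fallen members out of 24. KLF6 had 112.7, 109.5 and 111.7 CPM in the Guibi-tang libraries and 133.0, 133.1 and 133.9 CPM in the vehicle libraries (-0.26 ± 0.04, adjusted p = 1.78e-06). EGR1 had 36.1, 34.0 and 37.7 CPM in the Guibi-tang libraries and 52.2, 48.3 and 49.5 CPM in the vehicle libraries (-0.48 ± 0.13, adjusted p = 0.0306), while FOS fell by 0.36 and BTG2 by 0.21. Of the 4, KLF6 held its call whichever library was left out. EGR1 lost it without each of the 6 (adjusted p = 0.0576 to 0.13), and FOS and BTG2 lost it without vehicle replicate 1 or 3 or Guibi-tang replicate 1 or 2. Among differentiation genes, SOX9 and EPHB3, which WNT signalling drives in crypt cells, fell by 0.26 and 0.29, 2 of 15 WNT targets. MUC2, the gel-forming mucin of goblet cells, had 20.5, 17.6 and 23.6 CPM in the Guibi-tang libraries and 29, 28.5 and 30.5 CPM in the vehicle libraries, and did not pass (-0.53 ± 0.15, adjusted p = 0.051). MUC2 passed in 7 of 14 alternative settings, and its log2 difference was -0.64 to -0.42 over them. CEACAM7, a surface protein of mature colon cells, had 1.34, 1.05 and 1.05 CPM in the Guibi-tang libraries and 0.437, 0.236 and 0.245 CPM in the vehicle libraries and rose by 1.92 ± 0.26, the 1 risen gene out of 15 of enterocyte differentiation, where VIL1 and HNF4A fell by 0.17 and 0.15. VIL1 lost its call without vehicle replicate 1 or Guibi-tang replicate 1 or 2 (adjusted p up to 0.089), and HNF4A without any 1 library but vehicle replicate 2 (up to 0.202).

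Genes of proliferation moved little. Of 30 genes of the G1/S transition and DNA replication 5 rose, namely CDC6, RFC3, FEN1, RRM2 and MCM3, by 0.13 to 0.22 on the log2 scale, and all 30 had a positive difference with a median of 0.118. That count was 1 without Guibi-tang replicate 1, 2 without any 1 of the vehicle libraries and 3 without Guibi-tang replicate 2 or 3. No gene out of 26 of G2/M and mitosis passed, and the proliferation marker MKI67 had a log2 difference of 0.02. All 13 mitochondrially encoded genes had a negative difference, with a median of -0.193. None passed, though 8 did with no filter on low counts. In bulk RNA, fewer cells of a state and less RNA per cell cannot be told apart.

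The lower doses were compared with vehicle and with the high dose, to see which of these changes depend on the dose. Chemokines had risen already at 20 µg/mL, while NRF2 targets rose mainly at 500 µg/mL. At the low, medium and high dose 7, 7 and 7 of 13 chemokine genes passed against vehicle upward, and 2, 1 and 18 of 28 NRF2 targets. Over all genes 145 passed at the low dose (0.850%; 86 upward, 0.504%), 183 at the medium dose (1.07%; 98 upward, 0.575%) and 385 at the high dose. These totals moved to 58 to 76 and 71 to 121 when a library was left out, but to 576 and 604 without replicate 1 of the low or medium dose, the only earlier-numbered library of its dose. With a term for the numbering part 206 genes passed at the low dose, but only 90 of the 145 were among them. At the medium dose 138 passed with that term, and only 88 of the 183 were among them. The 3 comparisons share the vehicle libraries, so only the direct comparisons of doses bear on the difference.

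CXCL1 had 15.4, 19.9 and 15.7 CPM at the low, 21.4, 24.6 and 23.7 CPM at the medium and 27.1, 27.3 and 31.5 CPM at the high dose. The 3 doses did not overlap, and the step up to the high dose passed the test over the low dose (log2 0.75 ± 0.11, adjusted p = 4.49e-05) and not over the medium dose (0.30 ± 0.10, adjusted p = 0.374; with a term for the numbering part 0.40, adjusted p = 0.0242). PI3 had 16.1 ± 1.154 CPM at the low, 21.4 ± 0.28 CPM at the medium and 23.5 CPM at the high dose, and was higher at the high than at the low dose by 0.54 ± 0.08. LCN2 averaged 131.7, 149.1 and 138.8 CPM at the low, medium and high dose, with no order by dose. CLK1 had 50.7 ± 4.12 CPM at the low, 48.8 ± 2.02 CPM at the medium and 46.3 CPM at the high dose, each above its vehicle mean of 32.1 CPM.

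AKR1B10 had 101.9, 99.7 and 98.8 CPM at the low, 112.2, 99.0 and 106.4 CPM at the medium and 163.5, 145.0 and 157.9 CPM at the high dose. The low and medium doses did not pass against vehicle (adjusted p = 0.999 and 0.747), and the high dose was higher than the medium dose by 0.55 ± 0.10 (adjusted p = 0.00419) and than the low dose by 0.63 ± 0.10 (adjusted p = 0.000231). SQSTM1 had 370.5, 390.8 and 364.5 CPM at the low, 340.2, 366.6 and 372.7 CPM at the medium and 455.2, 500.4 and 487.9 CPM at the high dose. Its high-dose level exceeded the medium dose by 0.42 ± 0.04 (adjusted p = 1.52e-10) and the low dose by 0.36 ± 0.04 (adjusted p = 2.61e-08), while the low dose itself was 0.18 ± 0.04 above vehicle (adjusted p = 0.00976). AKR1C2 averaged 16.4, 16.4 and 25.1 CPM and GCLM 55.6, 58.7 and 77.6 CPM at the low, medium and high dose, each higher at the high dose than at both others.

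**Figure D4:**
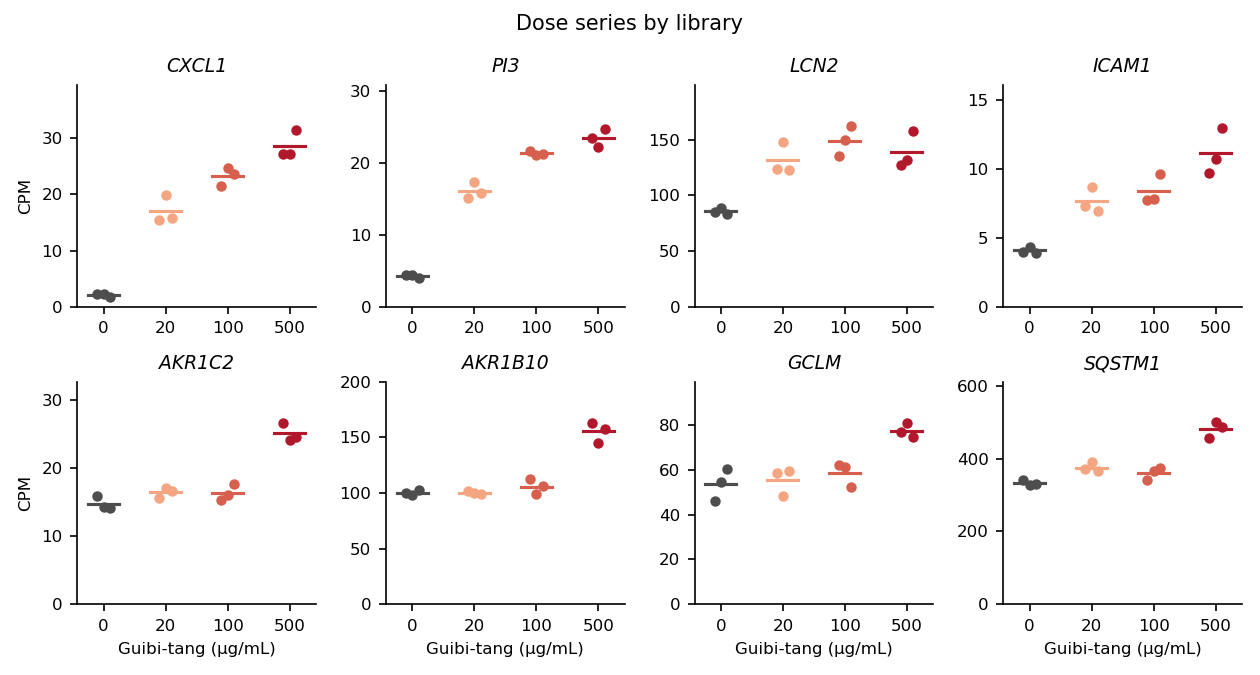
Levels in CPM (linear axes from 0) of 8 genes by Guibi-tang dose in µg/mL, with vehicle at 0. Points are libraries, 3 a dose, and short lines are the group means. CXCL1 and PI3 stand well above vehicle from 20 µg/mL on, while AKR1C2, AKR1B10, GCLM and SQSTM1 step up mainly between 100 and 500 µg/mL.

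In the direct comparisons, 23 genes differed between the high and medium doses (0.135% of those tested), 20 higher (0.117%) and 3 lower (0.0176%) at the high dose, and 60 between the high and low doses (0.352%), 36 higher (0.211%) and 24 lower (0.141%). Without 1 library the medium-dose count was 4 (medium replicate 3), 11 (high replicate 1 or 2) or up to 89 (medium replicate 1), and the low-dose count 22 to 27 without high replicate 1 or 2 or low replicate 2 or 3. Of the NRF2 targets 10 of 28 were higher at the high than at the medium dose (median 0.24) and 11 of 28 than at the low dose (median 0.23), and no member was lower in either. Of the chemokines 0 of 13 passed against the medium dose, with a median difference of 0.30, and 5 of 13 were higher than at the low dose. Of the high-dose libraries 1 is later-numbered and of the medium and low ones 2 each. With a term for the numbering part 2 of 13 chemokines passed against the medium dose, CXCL1 and CXCL8 (0.40, adjusted p = 0.0151, against 0.34 and 0.12 without the term). HMOX1 and AKR1C3 were higher at the high than at the medium dose by 0.49 and 0.58, and TGFBI, an extracellular matrix protein, was lower by 0.24 ± 0.04. BIRC3 was higher (0.54) and SELENOW lower (-0.41) at the high than at the low dose. The NRF2 count over the medium dose was 3 without medium replicate 3, 5 without high replicate 2 and 6 without high replicate 1. Over the low dose it was 6 without low replicate 2 or 3 and 7 without high replicate 1 or 2. The chemokine count over the low dose was 2 without high replicate 2 and 3 without high replicate 3 or low replicate 2 or 3. HMOX1 and AKR1C3 lost their calls over the medium dose without high replicate 1 or 2 or medium replicate 2 or 3 (adjusted p up to 0.296 and 0.388). BIRC3 lost its call over the low dose without high replicate 2 or 3 or low replicate 1 or 2 (adjusted p = 0.0563 to 0.101). SELENOW lost its call without any of the same libraries (0.0521 to 0.0807).

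The 5 other extracts at 500 µg/mL give a background for what any extract does at that dose in this line. Guibi-tang differed from their mean for 68 genes (0.399% of those tested), 61 higher (0.358%) and 7 lower (0.0411%). Against single extracts it differed from Menthae Herba for 246 genes (1.44%), Saposhnikoviae Radix for 76 (0.446%) and Saengmaek-san for 63 (0.370%). From Soyo-san it differed for 32 (0.188%) and from Okbyeongpung-san for 31 (0.182%). All Soyo-san and Okbyeongpung-san libraries at this dose are later-numbered, and all Menthae Herba and Saposhnikoviae Radix ones earlier-numbered. Guibi-tang and Saengmaek-san have libraries in both parts. These single-extract counts therefore do not separate the extract from the numbering part. Against the mean of the 5, 7 of 13 chemokines were higher (median 1.11), 7 of 15 antimicrobial genes and 9 of 24 inflammatory effectors, but 1 of 28 NRF2 targets (median 0.0458). Of the 219 genes that rose over vehicle, 50 were called higher than that mean. Of the 166 that fell, 0 were called lower, and 122 had a negative difference. No immediate early or G1/S gene passed there, and the 30 G1/S genes had 12 positive and 18 negative differences. SELENOW, MAST3 and CLK1 had differences of -0.03, -0.09 and 0.002 and did not pass.

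For the chemokines the 5 extracts fell into separate levels, and Guibi-tang was not told apart from 2 of them. CXCL1 averaged 28.6 CPM with Guibi-tang, against 25.0 CPM with Soyo-san and 26.5 CPM with Okbyeongpung-san, and against 1.85 CPM with Saengmaek-san, 1.88 CPM with Saposhnikoviae Radix and 2.26 CPM with Menthae Herba. The difference from Soyo-san was 0.19 on the log2 scale (95% interval -0.02 to 0.40, adjusted p = 0.48) and from Okbyeongpung-san 0.10 (-0.11 to 0.31, adjusted p = 0.727), and the intervals leave room for differences up to their upper bounds. CXCL8 parted the extracts in the same way, with 27.9 CPM with Guibi-tang against 25.4 CPM with Soyo-san and 25.3 CPM with Okbyeongpung-san (adjusted p = 0.524 and 0.502). With Menthae Herba, Saposhnikoviae Radix and Saengmaek-san CXCL8 averaged 7.38 to 9.56 CPM. PI3 averaged 23.5 CPM with Guibi-tang, against 21.7 CPM with Soyo-san, 23.6 CPM with Okbyeongpung-san and 4.05 to 4.40 CPM with the other three. IL17C averaged 0.918 CPM with Guibi-tang, against 0.705 CPM with Soyo-san, 0.639 CPM with Okbyeongpung-san and 0.0262 to 0.0967 CPM with the other three.

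SQSTM1 parted Guibi-tang from all 5. It averaged 481.1 CPM with Guibi-tang, against 403.3 CPM with Soyo-san, 396.7 CPM with Menthae Herba, 377.4 CPM with Okbyeongpung-san, 361.4 CPM with Saengmaek-san and 341.5 CPM with Saposhnikoviae Radix. Each of the 5 differences passed the test, by 0.25 to 0.49 on the log2 scale. Over Soyo-san and over Okbyeongpung-san the call was kept in 12 of 13 alternative settings each. Over Menthae Herba, Saposhnikoviae Radix and Saengmaek-san it was kept in all 14. The 3 Guibi-tang libraries, from 455.2 CPM upward, stood above the highest of the 15 others at 418.8 CPM (0.36 ± 0.03 over their mean, adjusted p = 1.68e-13). The leading genes of this comparison were named only if these values did not overlap, so the separation is not further evidence. UAP1L1, an uncharacterised relative of a UDP-sugar enzyme, averaged 6.41 CPM with Guibi-tang against 4.04 to 4.97 CPM with the others and was also higher than each of the 5; over their mean the difference was 0.48 ± 0.07. Without Guibi-tang replicate 2 it did not pass over that mean (adjusted p = 0.0597) nor over Menthae Herba, Saposhnikoviae Radix, Saengmaek-san or Soyo-san (0.249 to 0.582). It also missed the threshold over Menthae Herba or Saengmaek-san without replicate 2 of that extract (0.0744 and 0.439) and over Soyo-san without its replicate 1 or 2 (0.0713 and 0.142). Over the mean of the 5, TNFAIP2, a gene induced by TNF, was higher by 0.25 ± 0.04. NCR3LG1, a ligand of a natural killer cell receptor, was higher by 0.30 ± 0.05 and STX3, an apical membrane fusion protein, by 0.18 ± 0.03. TNFAIP2 did not pass over Soyo-san or Okbyeongpung-san alone (adjusted p = 0.293 and 0.407), nor NCR3LG1 over Menthae Herba (0.297). STX3 did not pass over Okbyeongpung-san, Saposhnikoviae Radix or Saengmaek-san (0.052 to 0.243). With a term for the numbering part STX3 was 0.09 above vehicle and did not pass (adjusted p = 0.169). PDZK1IP1, FLCN and TNFSF15 were higher than the mean of the 5 by 0.38, 0.32 and 0.26. PDZK1IP1 lost the call without Guibi-tang replicate 3 (adjusted p = 0.144) and FLCN without Guibi-tang replicate 2 (0.46). TNFSF15 lost it without Guibi-tang replicate 1 or 2 or Okbyeongpung-san replicate 3 (up to 0.615). Of the single extracts, PDZK1IP1 passed only over Menthae Herba and Saengmaek-san, FLCN only over Menthae Herba and Okbyeongpung-san, and TNFSF15 only over Menthae Herba.

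Of the 8 AhR targets, CYP1A1, CYP1B1 and TIPARP were lower with Guibi-tang than with the mean of the other extracts and none was higher, while the median was -0.09 with 4 positive and 4 negative differences. These 3 are not the members that rose over vehicle. The count was 1 without Guibi-tang replicate 1 and 2 or 3 without any other library. CYP1B1 averaged 46.1 CPM with Guibi-tang, against 85.7 CPM with Menthae Herba, 66.8 CPM with Saposhnikoviae Radix, 61.6 CPM with Soyo-san, 56.0 CPM with Okbyeongpung-san and 54.1 CPM with Saengmaek-san. All 3 Guibi-tang libraries were below the lowest of the 15 others, at 50.9 CPM, as the rule for naming genes required (-0.47 ± 0.06, adjusted p = 2.64e-07). The single differences from Okbyeongpung-san and Saengmaek-san did not pass (adjusted p = 0.1 and 0.353). That from Soyo-san did not pass without Guibi-tang replicate 1 or 2 or Soyo-san replicate 1 or 2 (up to 0.101). CYP1A1 was lower by 1.11 on the log2 scale (adjusted p = 0.0029), with 0.834 CPM with Guibi-tang against 6.13 CPM with Menthae Herba and 1.10 to 1.89 CPM with the other four.

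**Figure D5:**
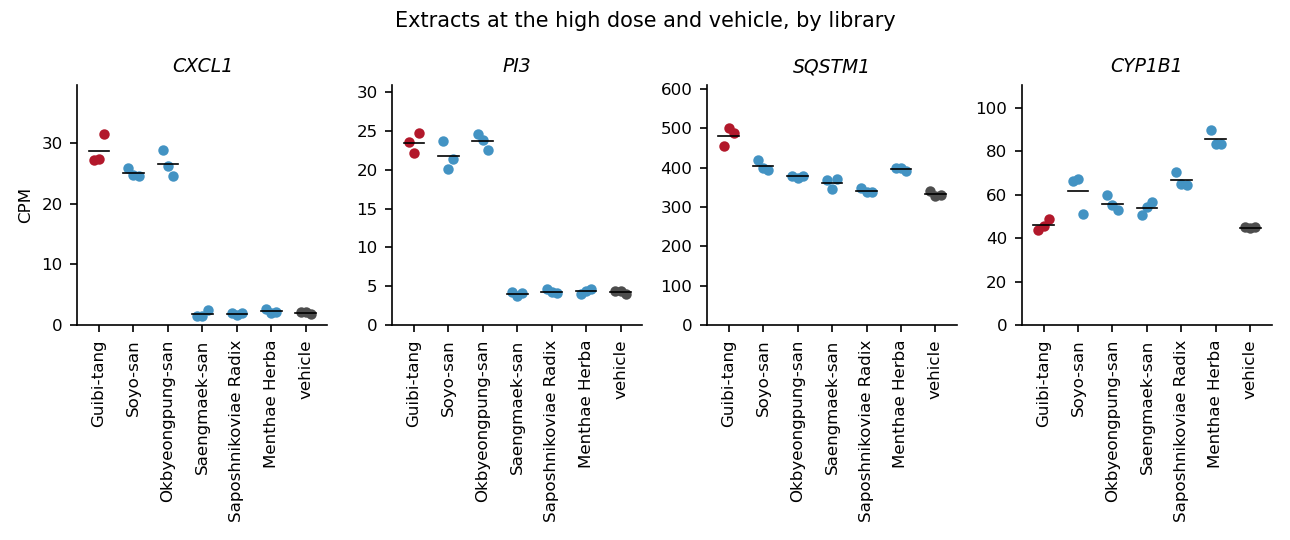
Levels in CPM of CXCL1, PI3, SQSTM1 and CYP1B1 in each library of Guibi-tang (red), the 5 other extracts at 500 µg/mL (blue) and vehicle (grey). Points are libraries and short lines are the group means. Guibi-tang, Soyo-san and Okbyeongpung-san stand high for CXCL1 and PI3, the Guibi-tang libraries alone lie above 418.8 CPM for SQSTM1, and their CYP1B1 is near the vehicle level.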

How the data were processed

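Per the labels' protocols, RNA of HT29 cells (integrity number over 7) went into MGIEasy directional libraries, which an MGIseq machine read from both ends for 100 bp. The deposited expected counts are RSEM estimates (version 1.3.3) on GRCh38; per the submitters' processing notes, STAR 2.7.3a, Trim Galore 0.6.5 and FastQC 0.11.9 were also used. Which annotation release and strand setting they took is not given in the sources used here. Reads that match several genes are divided between them in such counts, and 27.7% of values above 0 were not whole. They were rounded before any test. No column was left unused.

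Tests ran in R 4.3.3. The fit held 57 libraries in 19 groups of 3, so that they share 1 estimate of spread with 38 residual degrees of freedom. Genes were kept by filterByExpr of edgeR 4.0.16 (17049 genes with 99.95% of counts) and scaled by TMM. Comparisons used its robust quasi-likelihood test, Benjamini-Hochberg adjustment over the 17049 genes and a cutoff of 0.05. A fold change is the fitted log2 value, and its standard error is that value over the root of its F statistic. CPM uses TMM-scaled library sizes and is not divided by gene length. Counting error sets a floor of 3 counts. Intervals of differences are 95% intervals from the standard error. Coordinates and gene types are from GENCODE release 29, which may not be the submitters' release, and promoters from RefSeq (GRCh38.p14).

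The comparison, its members and the gene lists (37 lists, 736 genes, 650 tested), written from general knowledge, were chosen with earlier results of these data known. Genes were named by rule: from protein-coding genes that passed, reached 5 CPM in the higher group and had no overlap between groups, the 15 largest changes each way against vehicle, the 8 each way against the other extracts and the 5 each way between doses. To these came up to 6 members of each list by p, and fixed readouts. Results of a few genes chosen this way are not reported here. On simulated counts for 16912 genes of the comparison with vehicle, the test recovered 84% of 100 genes changed by 0.5 and 94% of 100 changed by 1 on the log2 scale, with 9 false calls. The changed genes were drawn from those averaging at least 1 CPM, and no shift between the numbering parts was simulated. The recovery therefore does not cover genes below that level. The replicate pairs of the high-dose group had a chi-square per degree of freedom of 8.04 to 13.2 and those of vehicle 3.47 to 4.83, so no library was a copy of another. Same-numbered high-dose and vehicle libraries did not deviate together (correlations of deviations -0.0114, -0.0467 and 0.004), so the numbers were not taken to pair them. Alternatives were the size factors and test of DESeq2 1.42.0, no filter on low counts, a replicate block, a term for the part of the numbering, the earlier-numbered libraries alone, the compared groups alone, mitochondrially encoded genes left out, and each library left out in turn.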

Additional observations from a re-analysis of the deposited data

Results flagged for a closer look

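For 12 fixed readouts the Guibi-tang high-dose libraries differed from the mean of the 5 other extracts at 500 µg/mL by edgeR's test of that difference, and these are the results picked out. On the log2 scale the differences, Guibi-tang minus the other extracts, were 2.37 for CXCL1, 1.67 for CXCL2, 1.56 for CXCL3, 1.11 for CXCL8 and 2.85 for CCL20 among the chemokines. They were 0.92 for ICAM1, 0.72 for BIRC3, 0.51 for TNFAIP3 (adjusted p = 0.0134) and 0.32 for ZC3H12A. Of the antimicrobial genes PI3 differed by 1.49 and LCN2 by 0.52. CYP1A1 was lower with Guibi-tang, at -1.11 (adjusted p = 0.0029), where Menthae Herba held the highest level. Soyo-san and Okbyeongpung-san had CXCL1, CXCL8, PI3, ICAM1 and LCN2 levels not told apart from those of Guibi-tang. For ICAM1 the adjusted p was 0.602 over Soyo-san and 0.643 over Okbyeongpung-san, and for LCN2 it was 0.625 and 0.883. The differences of these genes therefore rest on the lower levels with Menthae Herba, Saposhnikoviae Radix and Saengmaek-san.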

How the results depend on the processing

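Of the genes that passed between the Guibi-tang high dose and vehicle, 385 in all, 370 also passed among 617 with a term for the numbering part, 321 among 710 in the earlier-numbered libraries alone, and 170 among 210 (99 higher, 111 lower) in a fit on the 6 libraries alone. The count was 377 with DESeq2's size factors, with 370 of the 385 kept, and 505 with DESeq2's test, with 347 kept. Without a filter on low counts it was 548, 251 higher and 297 lower, but only 268 of the 385 were kept. Leaving out a library gave 158 to 255 genes. Against the other extracts (68 genes) no filter gave 181 and leaving out a library 48 to 70; the earlier-numbered libraries alone could not be used there, since Soyo-san and Okbyeongpung-san have none. The medium and low doses have 1 earlier-numbered library each, so their earlier-numbered counts rest on a lone sample assumed to vary like the other groups. Against the medium dose (23 genes) no filter gave 276, DESeq2's test 35, the earlier-numbered libraries 9, the 2 groups alone 2 and leaving out a library 4 to 89. Against the low dose (60 genes) these gave 201, 93, 17, 5 and 22 to 75. For the medium dose over vehicle (183 genes) no filter gave 794, the earlier-numbered libraries 61, the groups alone 99 and leaving out a library 71 to 604, the highest without the 1 earlier-numbered medium library. For the low dose over vehicle (145 genes) no filter gave 589, DESeq2's test 240 (110 higher, 130 lower), the earlier-numbered libraries 49, the groups alone 48 and leaving out a library 58 to 576, the highest without the 1 earlier-numbered low library. The cause was not tested.

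The replicate block gave 455 genes for the high dose over vehicle, 74 against the other extracts, 26 against the medium and 79 against the low dose, though in no comparison of the high dose with vehicle or another dose did every same-numbered pair deviate together above 0.1 (-0.16 to 0.13), and pairs with the other extracts were not checked. Over all alternatives, single-gene differences kept direction and side of the threshold in 2546 cases, lost the call in 316, gained it in 27 and changed sign in 9, none of them a called gene. MKI67, at 0.02, was -0.0483 with the numbering term, -0.0949 in the earlier-numbered libraries and -0.097 to 0.0903 without a library. Between Guibi-tang and Okbyeongpung-san, PI3 (-0.02) was 0.0358 with the numbering term and -0.0503 to 0.03 without a library, and LCN2 (-0.04) was 0.107 and -0.14 to 0.0155. Depth limits CXCL5, SAA1, SAA2 and C3, which had 0 counts in at least 1 vehicle library, so their folds are less sure than those of CXCL1 or PI3.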
